A study of Mus musculus with 16 samples.

Results

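The T cell receptor complex and T lineage genes examined here are Cd3d, Cd3e, Cd3g, Cd4, Cd8a, Cd8b1, Lck, Trac, Foxp3 and Bcl11b, 10 of the 55536 genes in the deposited count table. They were taken as the rows whose Ensembl identifier maps to these symbols, and all 10 were found, each once. RNA was sequenced from MC38 tumors, from bone marrow and from samples whose labels say MSC without expanding it, in mice of genotype KLF K74R and of genotype KLF WT. The K74R samples, whose titles say KO, were 3 tumors, 3 bone marrow samples and 2 MSC samples, and WT had the same numbers. The labels name the mutated gene only as KLF, and K74R is a missense change, so transcript levels cannot check the genotype labels. MC38 is a mouse colon adenocarcinoma line, and the tumors were of at most 1000 mm3. A tumor library mixes RNA of the line with RNA of the host, to which the genotype label refers. The labels used here state no ages, strains or treatments. No label says that replicates were separate animals, so the spread behind each p-value may be technical. In the deposited counts the WT tumor columns carry a letter R that the K74R tumor columns lack. The WT MSC columns carry the letters KCF where the K74R ones carry KLF. The meaning of these marks is not given, and they cannot be told apart from genotype.

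A T cell recognises antigen through a receptor of alpha and beta chains, which cannot signal alone and is held at the cell surface by the CD3 delta, epsilon and gamma chains and by the zeta chain. CD4 and CD8 are coreceptors that bind the antigen-presenting molecule and bring the kinase Lck to the complex, and Lck phosphorylates the signaling motifs in the CD3 tails. In mice Cd4 is also transcribed in some dendritic cells and macrophages, and CD8 alpha is also carried by some dendritic cells. In whole tissue, fewer cells of a type and less RNA per cell cannot be told apart.

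Total counts per library were between 14067259 and 18923751. Levels are given as CPM, the usual read count scaled to library size, with library totals corrected by the trimmed mean of M-values (TMM) within each tissue. At 3 counts, the limit that a count of 0 allows for counting error alone, the 4 MSC libraries together could hold up to 0.0439 CPM. Marker lists were summed in each library to check the labelled tissues. The 8 neutrophil markers summed to between 19844 and 26417 CPM in bone marrow. The 5 stromal markers summed to between 10286 and 14075 CPM in MSC, where the 7 macrophage markers also summed to between 1914 and 7377 CPM. The 5 epithelial markers, which include Epcam and Cdh1, summed to only 4.37 to 8.84 CPM in tumors, and up to 2 of them were at 0 in a tumor library. They summed to between 9.94 and 15.4 CPM in bone marrow and to 74.3 CPM in K74R MSC 1, so this list did not mark the tumors. In several libraries 1 or more member genes stood apart from the other libraries of their group. K74R tumor 2 was low in CD8 and CD3 epsilon transcripts, WT bone marrow 2 was low in Cd3d and K74R bone marrow 1 was high in the CD3 chains. WT tumor 3 was low in Bcl11b, at 3 counts, and K74R tumor 3 in Cd4, at 4 counts. Results that rest on K74R tumor 2 or WT bone marrow 2 are given with and without them.

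Cd3d (ENSMUSG00000032094, plus strand, positions 44981786 to 44987339), Cd3e (ENSMUSG00000032093, minus strand, 44998740 to 45009627) and Cd3g (ENSMUSG00000002033, minus strand, 44969572 to 44980431) lie side by side on chromosome 9 of GRCm38. Cd3g and Cd3d are transcribed away from each other, and their annotated starts are 1354 bases apart. The promoters of the 3 genes are shown because these neighbours, whose products form a single complex, had different transcript balances in tumor and marrow. RefSeq (GRCm38.p6) gives 250 bases before and 50 after each start, read 5′ to 3′ on the gene's strand, at chr9:44981536-44981835 for Cd3d, chr9:45009562-45009861 for Cd3e and chr9:44980382-44980681 for Cd3g. Capitals mark matches, on either strand, to 5 short motifs written after factors of the T lineage: the letters CAGGAA for ETS factors, CTTTGA for TCF/LEF, CACCTG for the E-box, AGATAA for factors of the GATA family and TGTGGT for RUNX.
Cd3d: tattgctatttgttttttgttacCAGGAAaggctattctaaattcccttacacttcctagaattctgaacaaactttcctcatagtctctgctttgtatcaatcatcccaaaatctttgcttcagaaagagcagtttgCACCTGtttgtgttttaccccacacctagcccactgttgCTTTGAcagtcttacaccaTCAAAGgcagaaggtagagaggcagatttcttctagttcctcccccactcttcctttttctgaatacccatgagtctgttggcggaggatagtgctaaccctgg
Cd3e: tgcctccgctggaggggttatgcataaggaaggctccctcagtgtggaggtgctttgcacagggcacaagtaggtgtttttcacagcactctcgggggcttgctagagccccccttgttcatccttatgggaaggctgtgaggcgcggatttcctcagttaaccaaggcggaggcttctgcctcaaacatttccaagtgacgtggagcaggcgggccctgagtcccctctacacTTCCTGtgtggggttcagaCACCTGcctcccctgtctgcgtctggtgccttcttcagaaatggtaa
Cd3g: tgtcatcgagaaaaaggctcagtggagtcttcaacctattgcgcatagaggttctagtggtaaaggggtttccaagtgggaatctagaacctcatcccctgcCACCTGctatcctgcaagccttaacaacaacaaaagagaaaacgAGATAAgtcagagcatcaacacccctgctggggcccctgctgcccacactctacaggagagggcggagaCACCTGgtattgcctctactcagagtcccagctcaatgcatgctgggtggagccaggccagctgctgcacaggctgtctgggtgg

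The Cd3d window held 1 ETS match, 1 E-box match and 2 TCF/LEF matches, at 73 and 54 bases before the start, the nearer one on the opposite strand and thus printed as TCAAAG. The Cd3e window held 1 ETS match on the opposite strand, printed as TTCCTG, and 1 E-box match. The Cd3g window held 1 GATA match and 2 E-box matches. None of these 3 windows held the RUNX letters. The motifs do not overlap each other here, and they are common: among 32851 promoter windows of the same length, 30.6% held the ETS letters, 20.2% the E-box, 16.8% the RUNX letters, 16.003% TCF/LEF and 11.2% GATA. A match is a description of the sequence only.

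The CD3 chains were carried by tumor and bone marrow and had no count in any of the 4 MSC libraries, but their order differed by tissue. Cd3d, the delta chain, had 2.29, 1.44 and 2.75 CPM in K74R tumors and 2.77, 1.84 and 2.11 CPM in WT tumors. In bone marrow Cd3d had 25.9, 15.3 and 14.4 CPM in K74R and 14.8, 2.01 and 12.5 CPM in WT. Tumor and marrow libraries overlapped only through WT bone marrow 2, whose 32 counts of Cd3d compare with 211 to 393 in K74R bone marrow. Cd3d was lower in tumor than in marrow, in edgeR's quasi-likelihood test, whose p-values were adjusted over all genes by Benjamini-Hochberg and stand behind every adjusted p given without another tool's name (log2 fold change -2.77, SE 0.38, adjusted p = 1.1e-05), and without WT bone marrow 2 the value was -3.01.

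Cd3g, the gamma chain, went the other way. It had 6.40, 3.68 and 6.63 CPM in K74R tumors and 7.02, 4.94 and 5.90 CPM in WT tumors. Bone marrow held 4.22, 2.15 and 2.39 CPM of Cd3g in K74R and 1.93, 2.13 and 2.28 CPM in WT. Every tumor library except K74R tumor 2 stood above every marrow library, and Cd3g rose in tumor against marrow (log2 fold change 1.05, SE 0.21, adjusted p = 3.6e-04, and 1.17 without K74R tumor 2). Cd3e, the epsilon chain that pairs with both others, had 3.31, 0.312 and 1.67 CPM in K74R tumors and 3.16, 1.58 and 2.59 CPM in WT tumors. Its marrow levels were 3.56, 1.21 and 1.84 CPM in K74R and 2.06, 0.816 and 1.03 CPM in WT. These ranges overlapped widely, and Cd3e did not pass the test between tissues (log2 fold change 0.14, SE 0.44, adjusted p = 0.778). Without K74R tumor 2 it had 0.38 and adjusted p = 0.312.

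The coreceptor genes separated the tissues in opposite directions. Cd8a (ENSMUSG00000053977, chromosome 6, plus strand, 71373427 to 71379173), the CD8 alpha chain, had 10.1, 0.812 and 6.63 CPM in K74R tumors and 9.52, 6.62 and 7.64 CPM in WT tumors. Marrow levels of Cd8a were 2.64, 2.88 and 2.46 CPM in K74R and 2.45, 2.01 and 1.77 CPM in WT. All tumor libraries but K74R tumor 2 exceeded all marrow libraries, and Cd8a rose in tumor (log2 fold change 1.38, SE 0.39, adjusted p = 0.00481, and 1.64 without K74R tumor 2). Cd8b1 (ENSMUSG00000053044, chromosome 6, plus strand, 71322788 to 71337494), the CD8 beta chain that marks conventional cytotoxic T cells, had 2.83, 0.562 and 2.33 CPM in K74R tumors and 4.08, 2.58 and 2.77 CPM in WT tumors. It had 1.38, 1.34 and 1.16 CPM in K74R marrow and 1.09, 1.07 and 1.03 CPM in WT marrow, a range narrower than that of any single tumor group. Cd8b1 rose in tumor by 0.90 on the log2 scale (SE 0.31, adjusted p = 0.0153), and by 1.12 without K74R tumor 2 (adjusted p = 1.9e-04). The Cd8b1 call was lost without K74R tumor 1, with 0.71 and adjusted p = 0.0507, and with limma-voom, with 0.74 and adjusted p = 0.0613. With limma-voom Cd8a had 1.08 and adjusted p = 0.0546.

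Cd4 (ENSMUSG00000023274, chromosome 6, minus strand, 124864692 to 124888221) was the member that differed most between tumor and marrow. It had 0.746, 0.687 and 0.239 CPM in K74R tumors, from 14, 11 and 4 counts, and 1.58, 0.999 and 1.44 CPM in WT tumors, from 29, 19 and 24 counts. In bone marrow Cd4 had 12.7, 17.0 and 18.9 CPM in K74R and 9.15, 17.1 and 10.9 CPM in WT. No tumor library came near a marrow library, and Cd4 fell in tumor by 4.18 on the log2 scale (SE 0.24, adjusted p = 7.3e-10). In MSC it had 16.9 and 6.25 CPM in K74R, against 0.808 and 1.69 CPM in WT. It was thus the only member with an MSC library at the level of bone marrow.

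Lck (ENSMUSG00000000409, chromosome 4, minus strand, 129548344 to 129573641), the coreceptor kinase, had 5.33, 3.37 and 2.51 CPM in K74R tumors and 4.35, 3.63 and 4.57 CPM in WT tumors. Its levels in marrow were 14.2, 14.2 and 13.7 CPM in K74R and 10.4, 9.35 and 10.8 CPM in WT. The tissues did not overlap, and Lck fell in tumor by 1.75 on the log2 scale (SE 0.16, adjusted p = 1.1e-07). Trac (ENSMUSG00000076928, chromosome 14, plus strand, 54220521 to 54224206), the constant segment of the receptor alpha chain, had 4.48, 0.999 and 2.75 CPM in K74R tumors and 5.77, 3.42 and 3.31 CPM in WT tumors. In marrow Trac had 3.10, 2.75 and 2.73 CPM in K74R and 2.25, 2.63 and 3.31 CPM in WT. Tumor values spread on both sides of the marrow values, and Trac did not pass between tissues (log2 fold change 0.12, SE 0.29, adjusted p = 0.701). Without K74R tumor 2 it had 0.32 and adjusted p = 0.176. In the MSC libraries Lck had 2 to 16 counts and Trac 3 to 10.

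The transcription factors were the least abundant members per kilobase of exon in tumor and marrow. Bcl11b (ENSMUSG00000048251, chromosome 12, minus strand, 107910403 to 108003602), required for commitment of progenitors to the T lineage, had 0.640, 0.187 and 0.776 CPM in K74R tumors and 0.544, 0.631 and 0.181 CPM in WT tumors. Marrow held 1.58, 2.41 and 2.05 CPM of Bcl11b in K74R and 1.48, 1.88 and 1.10 CPM in WT. No tumor library reached the lowest marrow library, and Bcl11b fell in tumor by 1.95 on the log2 scale (SE 0.34, adjusted p = 9.6e-05). Foxp3 (ENSMUSG00000039521, X chromosome, plus strand, 7573644 to 7595245), the defining factor of regulatory T cells, had 0.426, 1.19 and 0.538 CPM in K74R tumors and 0.435, 0.841 and 0.481 CPM in WT tumors. In marrow it had 0.659, 1.48 and 1.16 CPM in K74R and 1.48, 0.941 and 0.957 CPM in WT. Those ranges overlapped, and Foxp3 fell in tumor by 0.94 on the log2 scale (SE 0.33, adjusted p = 0.0164). The call was lost without K74R bone marrow 2, with -0.80 and adjusted p = 0.0522. Foxp3 values are uncertain because its exons share 853 bases with Flicr on the same strand and 590 with Ccdc22, 373 with Gm36995 and 266 with Ppp1r3f on the opposite one, and no source used here states the strand setting of the counting. Cd3e shares 135 exonic bases with the antisense Gm48719 and Lck 25 with Mir8119.

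**Figure D1:**
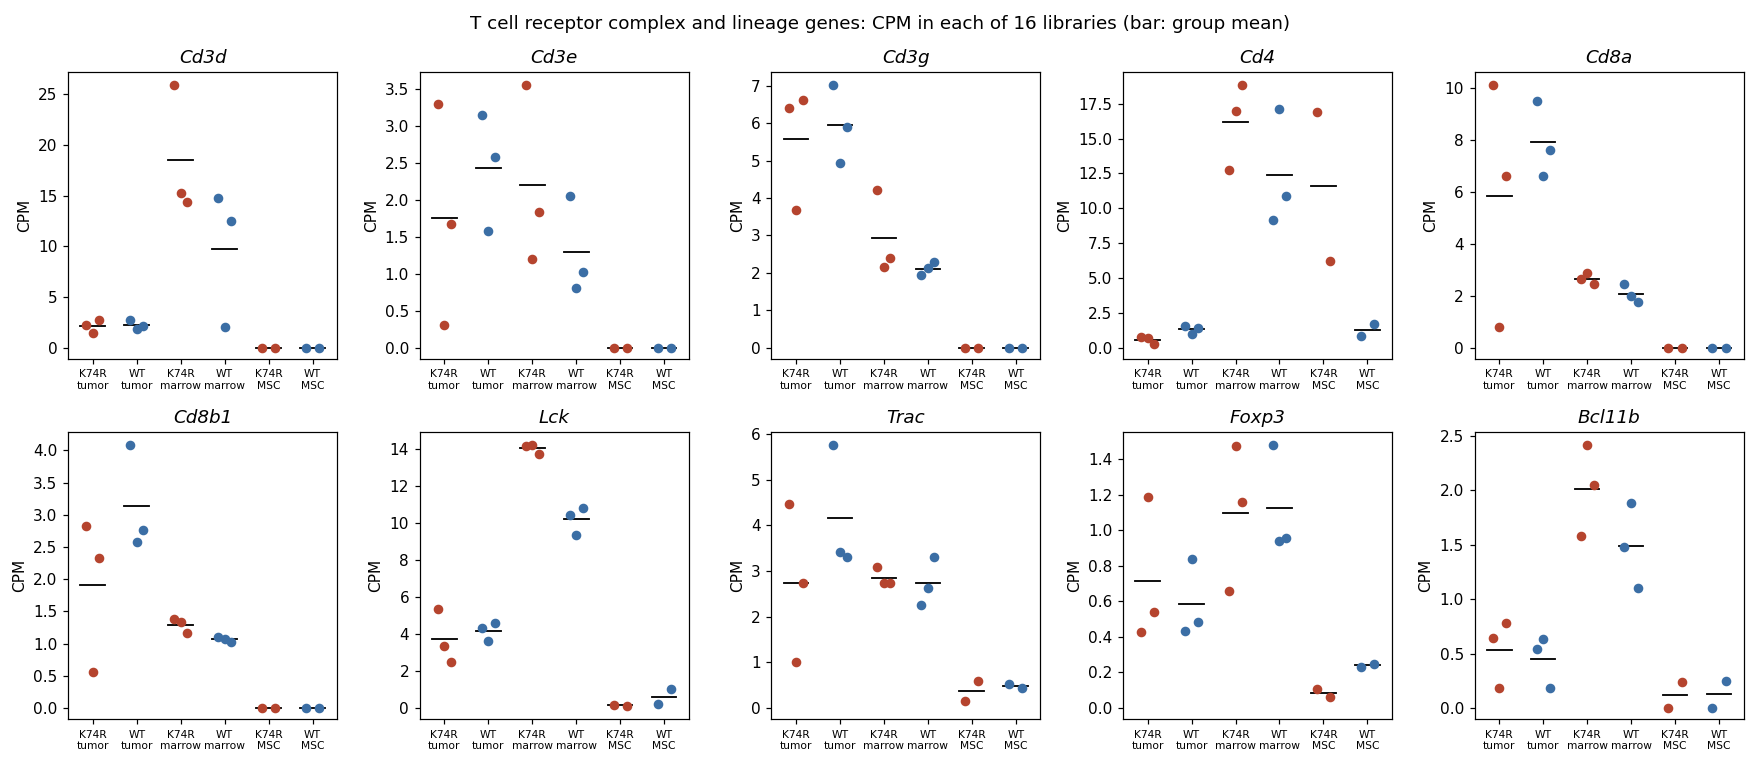
Level of each of the 10 genes in CPM (vertical axis, a scale of its own for each gene) in each of the 16 libraries; points are libraries, K74R in red and WT in blue, and black bars are group means. Cd3d, Cd4, Lck and Bcl11b stand highest in marrow, Cd3g, Cd8a and Cd8b1 in tumors, and Cd4 alone reaches marrow levels in an MSC library, at 16.9 CPM in K74R MSC 1.

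Between tumor and bone marrow 8 of the 10 genes passed, 3 higher and 5 lower, where 85.9% of all 16917 genes tested passed, 43.4% higher and 42.5% lower. The tissues differ in most of what they express, and the share of members that passed is near that background. The libraries of the tissues did not overlap for 3 of the 10, Cd4, Lck and Bcl11b, all lower in tumor, where 71.5% of all genes tested did not overlap and 31.2% of all genes tested were lower without overlap. Limma-voom called 6 of the 10. Beside these levels, the 10 NK cell markers summed to between 170 and 261 CPM in tumors and between 53.7 and 60.3 CPM in bone marrow. The 7 B cell markers summed to between 56.3 and 77.7 CPM in tumors and between 373 and 1080 CPM in marrow, and the 9 dendritic cell markers to between 33.3 and 47.4 CPM in tumors and between 105 and 159 CPM in marrow. Between 0 and 1 of the markers of each of these lists were at 0 in any tumor or marrow library, and the part of those cells in the member levels was not tested. Against the MSC libraries, where they had no counts, mean levels of the CD3 and CD8 genes were at least 47.8-fold higher in tumors for Cd3e, 50.1-fold for Cd3d, 57.5-fold for Cd8b1, 131-fold for Cd3g and 157-fold for Cd8a, relative to the floor of 3 counts over the 4 libraries. In marrow the same bound was 322-fold for Cd3d and between 26.9-fold and 57.3-fold for the other 4 genes.

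Levels of different genes were compared as CPM per kilobase of exon. In tumors Trac led with 3.69 ± 1.72 CPM per kb (SD, n = 6), followed by Cd8a with 1.90 ± 0.912, Cd3g with 1.76 ± 0.381 and Cd8b1 with 1.70 ± 0.767 CPM per kb, which did not differ beyond their spread. Lck with 1.35 ± 0.340 and Cd3d with 1.21 ± 0.287 CPM per kb came next, and these neighbours also overlapped. Cd3e had 0.515 ± 0.279, Cd4 0.235 ± 0.124, Foxp3 0.142 ± 0.0664 and Bcl11b 0.0608 ± 0.0309 CPM per kb. In bone marrow the order was another one. Cd3d led with 7.79 ± 4.20 CPM per kb (SD, n = 6), and Lck with 4.14 ± 0.739, Cd4 with 3.54 ± 0.970 and Trac with 2.99 ± 0.395 CPM per kb followed, each overlapping the next. Lower means followed for Cd8b1 with 0.795 ± 0.100, Cd3g with 0.770 ± 0.259, Cd8a with 0.651 ± 0.113 and Cd3e with 0.430 ± 0.247 CPM per kb. Single libraries still overlapped, as Cd3d had 1.11 CPM per kb in WT bone marrow 2 and Cd3g 1.29 in K74R bone marrow 1. Foxp3 and Bcl11b were last with 0.243 ± 0.0711 and 0.216 ± 0.0569 CPM per kb.

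The balance of the CD3 chains per kilobase differed by tissue, with K74R and WT libraries intermixed within each. Cd3d made up 31.3, 39.7 and 38.3% of the 3 chains in K74R tumors and 34.4, 34.8 and 32.2% in WT tumors. In bone marrow it made up 86.8, 89.8 and 87.0% in K74R and 88.1, 56.5 and 87.9% in WT, so that WT bone marrow 2 was the only marrow library under 86.8%. Cd3g held 48.6, 56.5 and 51.3% in K74R tumors and 48.3, 51.9 and 50.1% in WT tumors, and it held less than 9% in every marrow library but WT bone marrow 2, which had 33.3%. The coreceptor balance turned in the same way. Cd8a made up 93.8, 56.7 and 96.9% of Cd8a and Cd4 per kilobase in K74R tumors and 87.0, 88.0 and 85.4% in WT tumors. In marrow its share was 18.7, 15.9 and 12.6% in K74R and 22.9, 11.5 and 15.2% in WT. The lowest tumor share, in K74R tumor 2, was above the highest marrow share. Within CD8, the ratio of Cd8a to Cd8b1 per kilobase was 1.46, 0.589 and 1.16 in K74R tumors and 0.951, 1.05 and 1.13 in WT tumors. Marrow ratios lay between 0.699 and 0.911.

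**Figure D2:**
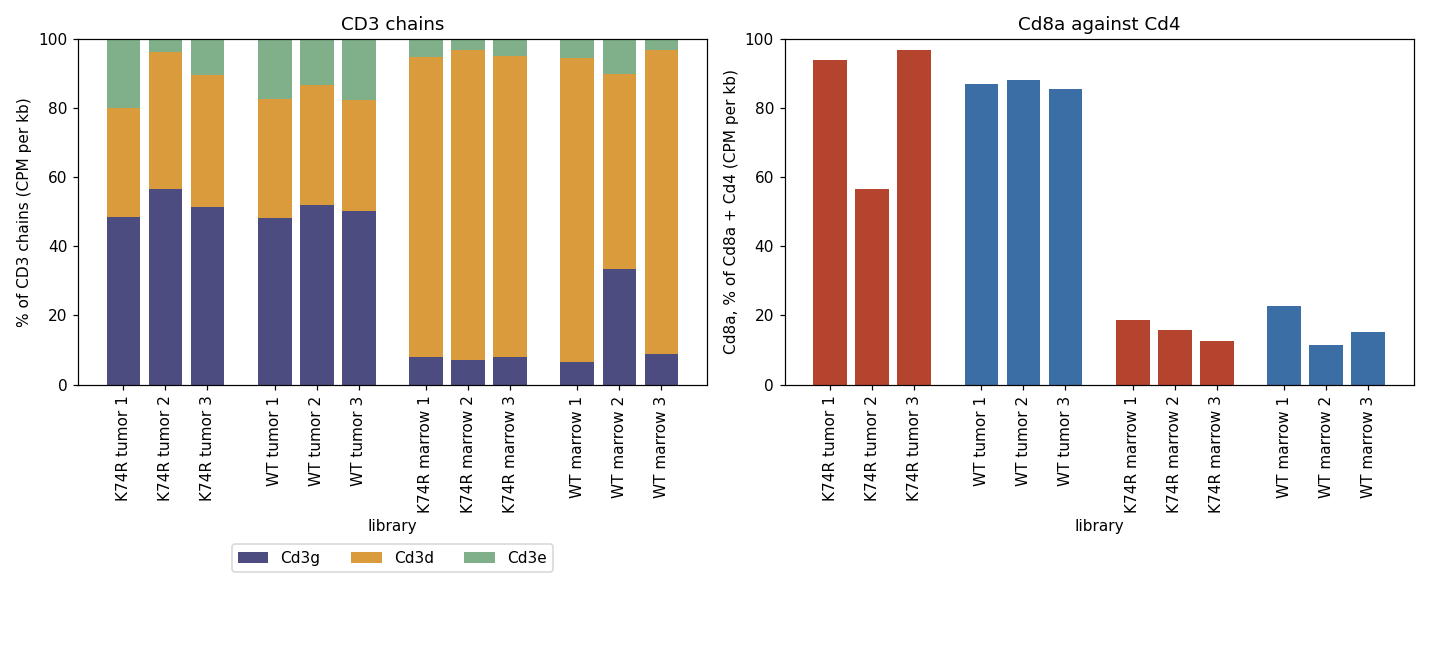
Left, share of Cd3g, Cd3d and Cd3e in the summed CPM per kilobase of the CD3 chains (vertical axis, %); right, share of Cd8a in the sum of Cd8a and Cd4 (vertical axis, %, K74R in red and WT in blue). Each bar is 1 tumor or bone marrow library; Cd3d takes 31.3 to 39.7% in tumors and 56.5 to 89.8% in marrow, and the Cd8a share is 56.7 to 96.9% in tumors and 11.5 to 22.9% in marrow.

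None of the 9 members that passed the filter on low counts was called in K74R against WT tumors (edgeR quasi-likelihood test, Benjamini-Hochberg adjustment), where 0.0406% of all 14779 genes tested were called, and Foxp3 did not pass that filter. At an unadjusted p under 0.05 there was 1, Cd4, beside 1661 of the 14779 genes, and neither DESeq2 nor limma-voom called a member, each with 1 at that unadjusted level. DESeq2 gave no adjusted p for Cd4, Foxp3 or Bcl11b. Cd4 averaged 0.557 ± 0.277 CPM in K74R tumors and 1.34 ± 0.303 CPM in WT tumors (SD, n = 3 each), with a log2 fold change of -1.25 (SE 0.44, adjusted p = 0.379). Its 3 K74R tumors all stood below its 3 WT tumors. Cd4 was the only member whose genotypes did not overlap in tumors, where 17.1% of all genes did not overlap and 9% were lower without overlap. Of the 9 members, 8 had a negative log2 fold change, and their median was -0.43, beside a median of 0.00494 over all genes. Without K74R tumor 2, 5 of the 9 were positive and the median was 0.039, while it was -0.75 with limma-voom and -0.73 with the replicate block. Cd8b1 (-0.71, SE 0.48, adjusted p = 0.588), Trac (-0.59, SE 0.47, adjusted p = 0.642), Cd3e (-0.45, SE 0.62, adjusted p = 0.811) and Cd8a (-0.43, SE 0.61, adjusted p = 0.819) had the most negative values after Cd4. Lck, Cd3g and Cd3d lay between -0.16 and -0.05, and Bcl11b had 0.23 (SE 0.61).

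In several of these genes K74R tumor 2 stood far below the other tumors. Its level was 10.6% of the median of the other 5 tumors for Cd8a, 12.1% for Cd3e, 20.3% for Cd8b1, 29.2% for Trac and 29.7% for Bcl11b. Cd3g stood at 57.6%, Cd3d at 62.7%, Cd4 at 68.8% and Lck at 77.5% of that median. It was the lowest of the 6 tumors for Cd3d, Cd3e, Cd3g, Cd8a, Cd8b1 and Trac, and the highest for Foxp3, at 247% of the median of the others. The total of all 10 genes was 36.6, 13.2 and 26.8 CPM in K74R tumors and 39.2, 27.1 and 31.0 CPM in WT tumors. Without K74R tumor 2 the log2 fold changes were 0.08 for Cd8a, 0.04 for Cd3e, 0.17 for Cd3d and 0.13 for Cd3g, that is, of the opposite sign. Those of Cd8b1 and Trac were then -0.28 and -0.20, while Cd4 kept -1.40 (SE 0.53, adjusted p = 0.461). The stromal markers summed to 829 CPM in K74R tumor 2 and to between 254 and 571 CPM in the other tumors, and none of the 5 was at 0. Its NK cell markers, at 170 CPM, were the lowest of the 6 tumors, with none of the 10 at 0. The macrophage markers summed to 643, 594 and 459 CPM in K74R tumors and 763, 801 and 746 CPM in WT tumors, with none of the 7 at 0. Of these 7 genes 6 were lower in K74R at an unadjusted p under 0.05 in edgeR's test, and none passed the adjusted one. Over all 14779 genes 1661 reached that unadjusted level in either direction. The part of these cell types in the member levels was not tested.

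**Figure D3:**
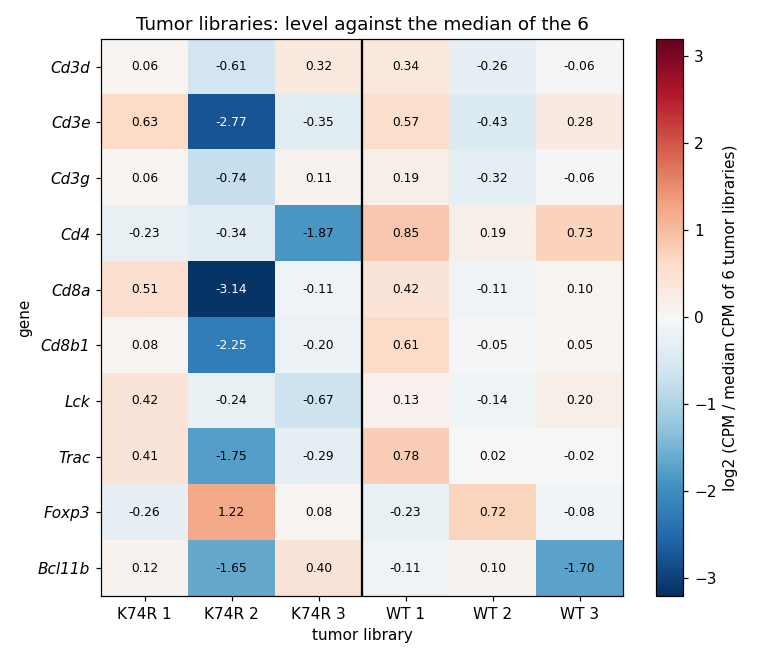
Level of each gene in each tumor library relative to the median of the 6 tumors, as log2 of the CPM ratio (color and printed value; red above, blue below the median); K74R libraries left of the line, WT right. K74R tumor 2 is at -3.14 for Cd8a, -2.77 for Cd3e and -2.25 for Cd8b1 but at 1.22 for Foxp3, and all 3 K74R tumors are below the median for Cd4.

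In bone marrow the members leaned upward in K74R without any passing the test. None of the 10 was called in K74R against WT marrow (edgeR quasi-likelihood test, Benjamini-Hochberg adjustment), where 0.773% of all 14872 genes were called. At an unadjusted p under 0.05 there was 1, Lck, beside 2646 of the 14872 genes, and neither DESeq2 (1 at that unadjusted level) nor limma-voom (2) called a member, while without a filter on low counts Cd3d passed, with 0.92 and adjusted p = 0.0331. Lck averaged 14.0 ± 0.268 CPM in K74R marrow and 10.2 ± 0.764 CPM in WT marrow (SD, n = 3 each), with a log2 fold change of 0.46 (SE 0.12, adjusted p = 0.126). Its adjusted p lay between 0.117 and 0.572 over 15 alternative settings. Lck, Cd8a and Cd8b1 were higher in every K74R marrow library than in any WT one, 3 of 10, against 22.9% of all genes that did not overlap and 11.8% that were higher without overlap. The log2 fold changes of Cd8a and Cd8b1 were 0.35 (SE 0.25, adjusted p = 0.492) and 0.28 (SE 0.30, adjusted p = 0.663), and their libraries held between 14 and 43 counts. In 9 of the 10 members the K74R marrow had a positive log2 fold change, Foxp3 being the exception at -0.04 (SE 0.40), and the median of the 10 was 0.40 beside a median near 0 (-0.000516) over all genes.

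Cd3d had the largest log2 fold change in marrow, 0.93 (SE 0.53, adjusted p = 0.389), which became 0.43 (SE 0.25, adjusted p = 0.338) without WT bone marrow 2. Cd3e had 0.75 (SE 0.48), Cd3g 0.47 (SE 0.31) and Bcl11b 0.43 (SE 0.32), with adjusted p between 0.445 and 0.514. K74R bone marrow 1 was the highest marrow library for all 3 CD3 chains. With a library left out in turn, Cd3e went as low as 0.22 and Cd3g as low as 0.099. Cd4 averaged 16.2 ± 3.14 CPM in K74R marrow and 12.4 ± 4.19 CPM in WT marrow (SD, n = 3 each), with a log2 fold change of 0.38 (SE 0.24, adjusted p = 0.430), and without WT bone marrow 2, its highest WT library, the value was 0.68 (SE 0.19, adjusted p = 0.0788). Trac had 0.07 (SE 0.24, adjusted p = 0.910). The members' total was 69.9, 60.7 and 60.8 CPM in K74R marrow and 47.1, 40.0 and 45.7 CPM in WT marrow. Marker sums of other cells were higher, lower or overlapping. The B cell markers summed to 759, 1000 and 1080 CPM in K74R marrow, against 484, 714 and 373 CPM in WT marrow, and all 7 had an unadjusted p under 0.05, though none passed the adjusted test. Dendritic cell markers summed to 145, 141 and 159 CPM in K74R marrow and 112, 137 and 105 CPM in WT marrow. NK cell markers summed to 57.8, 58.9 and 56.7 CPM in K74R marrow and 60.3, 58.5 and 53.7 CPM in WT marrow, which overlapped. Neutrophil markers, the most abundant list, summed to 21283, 21402 and 19844 CPM in K74R marrow and 25417, 24376 and 26417 CPM in WT marrow, lower in every K74R library, and of the 8 genes 4 were lower and 1 was higher at unadjusted p values under 0.05, with none past the adjusted test. No marker of these lists was at 0 in a marrow library, and their part in the member levels was not tested.

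**Figure D4:**
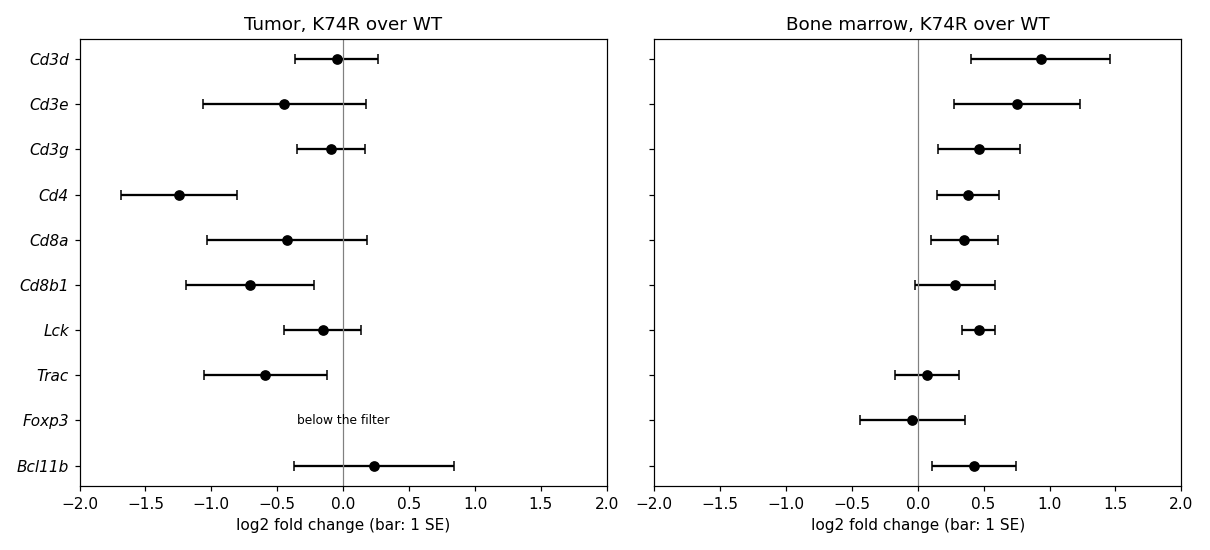
Log2 fold change of K74R over WT (horizontal axis) in tumors (left) and bone marrow (right) for each of the 10 genes; points are edgeR estimates and bars are 1 SE. In tumors 8 of 9 points lie below 0, led by Cd4 at -1.25; in marrow 9 of 10 lie above 0, led by Cd3d at 0.93, and none passed the adjusted test in either tissue.

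In MSC the only member abundant enough for the test was Cd4. It had 16.9 and 6.25 CPM in K74R MSC, from 310 and 104 counts, against 0.808 and 1.69 CPM in WT MSC, from 14 and 27 counts. Both K74R libraries stood above both WT libraries, with a log2 fold change of 3.22 (SE 0.63, n = 2 each) and adjusted p = 0.0561, not past the threshold of 0.05, where 3.34% of all 14475 genes were called. At an unadjusted p under 0.05 there was this 1 member, beside 3765 of the 14475 genes. With 2 libraries a group, 59.5% of all genes did not overlap. The other members of that kind were Lck and Foxp3, lower in K74R, from 1 to 16 counts a library. Cd4 passed with DESeq2 (adjusted p = 6.0e-06), with all 16 libraries in a single model (4.5e-04), without a filter on low counts and with the replicate block. It did not pass with limma-voom (0.0944), with any of the other scalings or with a filter at 1 CPM. With a library left out in turn, its log2 fold change lay between 2.33, without K74R MSC 1, and 3.83. No count of Cd3d, Cd3e, Cd3g, Cd8a or Cd8b1 was present in these libraries. Macrophage markers summed to 1914 and 3625 CPM in K74R MSC and to 7377 and 5690 CPM in WT MSC, with none of the 7 at 0. Dendritic cell markers summed to 6.72 and 7.09 CPM in K74R MSC and to 20.02 and 23.8 CPM in WT MSC, with 3 to 5 of the 9 at 0. Both lists thus ran against Cd4, and their part in its level was not tested.

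The genotype effects of the members were also compared between tissues. None of the 10 differed between tumor and marrow (edgeR quasi-likelihood interaction, Benjamini-Hochberg adjustment), where 0.432% of all genes were called. At an unadjusted p under 0.05 there was 1, Cd4, beside 2817 of the 16917 genes, limma-voom called 0 members, and DESeq2 called 1, Cd4. The effect on Cd4 in tumor minus that in marrow was -1.62 on the log2 scale (SE 0.49, adjusted p = 0.142, and 0.0260 by DESeq2). Of the 10 differences 9 were negative, Foxp3 being the exception at 0.30 (SE 0.66). The Cd4 effect in MSC minus that in tumor, a comparison chosen after the values were seen, was 4.48 (SE 0.79, adjusted p = 0.00890), where 7.7% of all genes passed.

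Genes that work beside the members were read from fixed lists in which Trac is also a constant segment. Of 16 genes of receptor signaling tested between tumor and marrow, 2 rose and 11 fell. The kinase Fyn rose (0.52, SE 0.10), the adaptor gene Sh2d1a rose (0.75, SE 0.32, adjusted p = 0.0412, a call kept in 7 of 20 alternatives), the regulator Ubash3a fell (-6.04, SE 0.24) and the adaptor gene Fyb fell (-1.99, SE 0.09). Of 7 constant segments none rose and 5 fell, with the gamma segments Trgc1 and Trgc4 first, at 0.102 ± 0.0949 and 0.0793 ± 0.0396 CPM in K74R tumors and 0.647 ± 0.164 and 0.652 ± 0.339 CPM in K74R marrow (SD, n = 3). Among 10 costimulation and adhesion genes 2 rose, Thy1 (2.502, SE 0.16) and the costimulator Icos (1.39, SE 0.25), and 5 fell, Slamf6 (-5.40, SE 0.30) and Cd27 (-3.67, SE 0.25) with the smallest p. Of 10 T lineage transcription factors 4 rose, with Tcf7 (2.78, SE 0.10) and Lef1 (0.83, SE 0.18) first, and 5 fell, with Satb1 (-6.03, SE 0.13) and Runx3 (-2.26, SE 0.12) first. Of 7 regulatory T cell genes 3 rose, among them Tnfrsf9 (5.57, SE 0.30) and the inhibitory receptor gene Ctla4 (2.64, SE 0.31), and 3 fell, among them Lrrc32 (-3.17, SE 0.27) and the interleukin-2 receptor gene Il2ra (-1.55, SE 0.19). Of 7 homing genes 1 rose, the chemokine receptor gene Cxcr6 (1.06, SE 0.36), and 4 fell, with Il7r (-3.41, SE 0.25) and the chemokine receptor gene Cxcr3 (-3.01, SE 0.25) first. All 6 early T cell development genes tested fell. The recombinase gene Rag1 had no count in any tumor and 188 ± 36.6 CPM in K74R marrow and 70.2 ± 35.1 CPM in WT marrow (SD, n = 3 each), and Notch1 had -1.14 (SE 0.08). Rag1 ran from 40.7 CPM in WT bone marrow 3 to 222 CPM in K74R bone marrow 3. The B cell marker sums ranked the marrow libraries in the same order, and the part of B lineage cells in the Rag1 level was not tested. The shares of these lists that passed also stand beside the 85.9% of all genes that passed between the tissues. In K74R tumor 2, low in CD8 and Cd3e transcripts, Tcf7 had 43.7 CPM, against 37.8 to 42.0 CPM in the other tumors. Lef1, Thy1 and Tnfrsf9 lay within the range of the other tumors there. Cxcr6 was low in that library, at 0.562 CPM against 3.52 to 5.28 CPM. The part of the tumor line and of other cells in these levels was not tested.

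Between the genotypes few of the listed genes passed. In tumors 0 of the 4 constant segments, 16 signaling, 10 costimulation, 10 transcription factor, 7 regulatory T cell, 6 homing and 3 early development genes tested passed. Fyb had 40.4, 29.7 and 31.5 CPM in K74R tumors, against 56.5, 51.2 and 62.3 CPM in WT tumors (log2 fold change -0.74, SE 0.13, adjusted p = 0.194). Lcp2, an adaptor gene of the same pathway, had -0.67 (SE 0.20, adjusted p = 0.340), and 4 of the 16 signaling genes were lower at an unadjusted p under 0.05, a level that 1661 of all 14779 genes reached in either direction. Klf2, a factor of naive T cell migration, had -0.65 (SE 0.18, adjusted p = 0.316). Fyb, Lcp2 and Klf2 were also present in the MSC libraries, where no CD3 or CD8 gene had a count. There Fyb had 96.1 to 285 CPM, Lcp2 48.5 to 99.3 CPM and Klf2 28.7 to 44.8 CPM. The part of other cells in their tumor levels was not tested. Among regulatory genes Ctla4 had 0.45 (SE 0.37) and Tnfrsf18 -0.33 (SE 0.29), and among constant segments Trgc2 had -1.22 (SE 0.79), with adjusted p of at least 0.567 for these 3.

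In bone marrow Il7r, the interleukin-7 receptor gene of T and B cell progenitors and of naive T cells, rose as the only one of 7 homing and of 6 early development genes, with 94.8, 130.4 and 151.4 CPM in K74R marrow, against 41.9, 68.7 and 35.2 CPM in WT marrow (1.37, SE 0.24, adjusted p = 0.0454). The call was kept in 9 of 15 alternatives, and among the libraries left out in turn it was lost without WT bone marrow 1 or 3 and without K74R bone marrow 2 or 3. The B cell marker sums above were likewise higher in K74R marrow, and their part in the Il7r level was not tested. None of the 7 constant segments, 15 signaling genes, 10 costimulation genes, 9 transcription factors or 4 regulatory T cell genes passed. The delta constant segment Trdc had 0.87 (SE 0.31, adjusted p = 0.194) and the beta segment Trbc1 0.66 (SE 0.26, adjusted p = 0.234). The Ras activator gene Rasgrp1 had 0.60 (SE 0.20, adjusted p = 0.174) and the adaptor gene Skap1 0.96 (SE 0.35, adjusted p = 0.202). Cd2 had 0.80 (SE 0.22, adjusted p = 0.132), Ets1 0.40 (SE 0.11, adjusted p = 0.124) and Il2ra 0.84 (SE 0.30, adjusted p = 0.194).

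In MSC no T cell receptor constant segment passed the filter on low counts, and of 3 early development genes 1 fell, Notch1, a receptor used by many cell types. Its levels were 44.6 and 48.3 CPM in K74R MSC, against 101.6 and 87.3 CPM in WT MSC (log2 fold change -1.02, SE 0.18, adjusted p = 0.0479), and the call was lost when any of the 4 libraries was left out. None of 4 signaling, 4 costimulation, 6 transcription factor, 5 regulatory or 4 homing genes passed. Thy1 had -3.79 (SE 0.85, adjusted p = 0.0669) and Lrrc32 1.42 (SE 0.30, adjusted p = 0.0613) while Tox had 0 and 0.0601 CPM in K74R MSC and 0.981 and 1.38 CPM in WT MSC (adjusted p = 0.0505).

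The mean profile of Cd3d, Cd3e and Cd3g over the 12 tumor and marrow libraries, on the log2(CPM + 0.5) scale and centred within each tissue, was compared with every other gene. The profile had a standard deviation of 0.524. The 5 genes outside the members with the smallest root mean square difference from it were Ms4a4b (0.324), Gm15931 (0.337), Cd6 (0.392), Gm5150 (0.408) and Gm20743 (0.411). The chains themselves differed from their mean profile by 0.423 for Cd3d, 0.306 for Cd3e and 0.311 for Cd3g. Cd3d thus lay farther from it than any of these 5 genes. Among members outside the CD3 chains, Cd8b1 differed by 0.413, Lck by 0.419, Trac by 0.444, Bcl11b by 0.544, Cd8a by 0.570, Cd4 by 0.674 and Foxp3 by 0.711. Members were not held to the minimum standard deviation asked of the other genes, 0.8 times that of the profile, and Lck had only 0.284. The distance of a gene that varied little is thus no measure of likeness. All these libraries share the same tissues and tumors, so the distances are a description with no test.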

How the data were processed

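The authors deposited raw counts per gene for 16 libraries in 1 table, whole numbers without normalization. The submitters' processing notes name Trimmomatic 0.38, HISAT2 2.1.0, featureCounts 1.6.0, FastQC, MultiQC and the build GRCm38. Per the labels' protocols, RNA came from TRIzol extraction and libraries from the KAPA mRNA HyperPrep kit. No source used here states the annotation, the strand setting or the treatment of multi-mapping reads, and a paralog or overlapping gene can share reads with a member.

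All 55536 Ensembl identifiers matched GENCODE M21, and samples were grouped by the tissue and genotype in their labels. CPM was computed on library totals times TMM factors fitted within each tissue, while fold changes between tissues used factors fitted over both. Tests were made with R 4.3.3 and edgeR 4.0.16: filterByExpr, TMM, the quasi-likelihood test over all genes kept and Benjamini-Hochberg adjustment at 0.05, in each tissue alone for K74R against WT and over the 12 tumor and bone marrow libraries for tissue and interaction. The SE is the size of the log2 fold change over the square root of F. Alternatives were other scalings and filters, DESeq2 1.42.0, limma-voom (limma 3.58.1), all 16 libraries, the replicate block and each library left out. The code was tested on simulated data.

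The members and the gene lists, 120 genes named and 120 matched, were chosen with earlier results of these data known. Named were all members and, from each list, up to 2 genes of smallest p in each direction that passed, or, where none passed, up to 2 given as values. Likeness took genes whose average log2 CPM was 0 or more and whose standard deviation reached 0.8 times that of the CD3 profile. Some listed genes are not reported here and were left out of the list counts. Promoter sequences came from RefSeq. Intervals and floors cover counting error only.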

Additional observations from a re-analysis of the deposited data

Results flagged for a closer look

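The difference of the K74R effect between tissues passed its own test for Fyb, of the T cell lists, between tumor and marrow, and for Cd4 between MSC and tumor. Only Cd4 was read in the second comparison, and listed genes that are not named here also passed in each. Fyb had 40.4, 29.7 and 31.5 CPM in K74R tumors, against 56.5, 51.2 and 62.3 CPM in WT tumors, and 163 ± 12.9 CPM in K74R bone marrow and 149.6 ± 16.9 CPM in WT bone marrow (SD, n = 3 each). Its effect in tumor minus that in marrow was -0.86 on the log2 scale (SE 0.17, edgeR adjusted p = 0.0482), kept in 7 of 21 alternatives. In the MSC libraries, where no CD3 or CD8 gene had a count, Fyb had 96.1 to 285 CPM. The part of other cells in the Fyb levels was not tested. For Cd4 the effect in MSC minus that in tumor, chosen after its values were seen, was 4.48 (SE 0.79, edgeR adjusted p = 0.00890), kept in 18 of 19 alternatives.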

How the results depend on the processing

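Counts of members called changed under few alternatives. In K74R against WT bone marrow 1 was called with no filter. In MSC 1 was called with no filter, with DESeq2 and with the replicate block, 2 with all 16 libraries, and 0 to 1 with a library left out. The effect difference between tumor and marrow gave 1 call with no filter and 1 with DESeq2. The Cd4 effect in MSC minus that in tumor was 4.39 with the replicate block (adjusted p = 0.0513). Deviations of same-numbered libraries had correlations between -0.203 and 0.315, not above 0.1 in every pair. With 2 or 3 libraries a group these values cannot settle whether the numbers pair samples, and the main fits did not pair them. Under the block 135 genes were called in marrow, 13 in tumors and 1135 in MSC, against 115, 6 and 484 without it, and 124 against 73 for the effect difference. Between tissues the block fit estimated the difference at libraries numbered 1 alone. Bcl11b did not pass there, with -1.53, which is not a repeat of the main comparison. Crossed numbers in MSC, tried after the data were seen, gave 1 member and 1943 genes. Directions turned only for members and a list gene that were not called. With a library left out, the log2 fold change of K74R over WT lay between -0.26 and 0.17 for Cd3d, -1.28 and 0.039 for Cd3e, -0.23 and 0.13 for Cd3g, -1.08 and 0.085 for Cd8a, -0.51 and 0.063 for Lck, -0.12 and 0.62 for Bcl11b and -0.13 and 0.69 for Il7r in tumors. It lay between -0.054 and 0.22 for Trac and -0.32 and 0.22 for Foxp3 in marrow. Tumor over marrow lay between -0.28 and 0.41 for Cd3e, which was -0.021 with limma-voom, and -0.15 and 0.32 for Trac. The effect difference lay between -0.25 and 0.67 for Foxp3 and -0.55 and 0.19 for Bcl11b. Library size alone moved the median of all genes between tissues to 0.18 and DESeq2 to -0.12, against 0.02, and the direction of no called member changed. With no filter 875 genes were called in marrow, 810 in tumors, 3063 in MSC and 1061 for the effect difference, with DESeq2 487, 196, 1831 and 579, and with all 16 libraries 60, 0, 4431 and 7. At 3 to 29 counts a library for the tumor values of Cd4, Foxp3 and Bcl11b, depth limits what could be detected.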
